A study of Drosophila melanogaster with 2 samples.

Results

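The genes of the mitochondrial ribosomal proteins were taken as the protein-coding genes whose symbol starts with mRpL or mRpS in the Ensembl annotation of the fly genome. There were 73 of them among 13968 protein-coding genes on the main chromosome arms, 47 for the large subunit (mRpL) and 26 for the small subunit (mRpS). Chromatin immunoprecipitation followed by sequencing (ChIP-seq) had been done with an antibody to GFP on whole Drosophila melanogaster embryos, 8 to 24 h old. The strain, nerfin-2-GFP, carries a transgene that makes the zinc-finger protein nerfin-2 fused to eGFP. Both samples, labelled biological replicates 1 and 2, belong to 1 group. A control experiment named in the labels was not analysed here, and read depth is unknown because the files hold peaks, not reads.

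Mitochondria carry ribosomes of their own, which translate the few proteins encoded by the mitochondrial genome, all of them parts of the oxidative phosphorylation machinery. The ribosomal RNAs come from the mitochondrial genome, whereas the proteins are encoded in the nucleus, made in the cytoplasm and imported. Some of these proteins belong to families shared with bacterial ribosomes and others are specific to mitochondria. The nuclear genes are transcribed in most tissues. Many broadly transcribed fly genes have the DNA replication-related element (DRE), TATCGATA, close to the transcription start site (TSS), where the factor DREF binds it.

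A gene was called when the summit of a peak in the conservative thresholded list, made by the authors from both replicates, lay no more than 500 bp from a TSS of the gene. By this rule 28 of the 72 members that had at least a relaxed peak there were called. That is 38.9% (Wilson 95% interval 28.5 to 50.4), and over all 11817 protein-coding genes with a relaxed peak the share was 22.9%. The called genes include proteins of the ribosome's core (mRpL3, mRpL4), its factor-binding stalk (mRpL10, mRpL12) and its mitochondria-specific shell (mRpL42, mRpL39, mRpL53). With all 73 members and all protein-coding genes as denominators, the shares were 38.4% and 19.4%. No test was made of this difference, since there is 1 group of samples. In whole embryos, a peak present in few cells and a weak peak present in many cannot be told apart.

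Stretches of the promoters of 5 called members, each with its summit closest to its own TSS, are shown because they hold the most frequent of the motifs searched under these peaks. Each runs from 50 bases before the annotated TSS to 30 bases after it, 5′ to 3′ on the gene's strand, in the Release 6 (dm6) assembly. Capitals mark the DRE TATCGATA or, where the flanking letters differ, its core ATCGAT.
mRpL30, chrX:4647821-4647900, plus strand: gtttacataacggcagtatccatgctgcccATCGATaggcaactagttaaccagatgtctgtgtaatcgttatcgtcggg
mRpL4, chr2L:16329103-16329182, minus strand: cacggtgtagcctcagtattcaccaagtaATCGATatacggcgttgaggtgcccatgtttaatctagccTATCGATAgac
mRpL3, chrX:15761198-15761277, plus strand: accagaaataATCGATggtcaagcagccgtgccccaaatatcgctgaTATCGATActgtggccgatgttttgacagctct
mRpL10, chr2L:203729-203808, plus strand: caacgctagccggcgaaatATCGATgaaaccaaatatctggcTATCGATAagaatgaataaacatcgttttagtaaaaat
mRpS23, chr2L:13835043-13835122, minus strand: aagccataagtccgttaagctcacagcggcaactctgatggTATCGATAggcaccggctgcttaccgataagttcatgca

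In mRpL3, mRpL10 and mRpS23 the DRE spans or lies just before the TSS, and in mRpL4 it lies after it. For comparison, 3 members that were not called follow. They were chosen because they have no divergent neighbour and no DRE core, and hold instead the E-box CAGCTG, a palindrome of the class that basic helix-loop-helix proteins bind, here in capitals. Both sets were chosen by motif as well as by call, so they do not show how calls go with either motif. mRpL45, also with the E-box and without a DRE core or divergent neighbour, was called, with a signal of 114.
mRpS34, chr3L:16348024-16348103, plus strand: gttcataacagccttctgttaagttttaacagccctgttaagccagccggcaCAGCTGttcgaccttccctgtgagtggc
mRpS35, chr3L:2780849-2780928, plus strand: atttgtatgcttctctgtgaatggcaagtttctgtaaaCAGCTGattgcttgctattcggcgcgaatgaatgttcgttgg
mRpS33, chr3R:16436568-16436647, minus strand: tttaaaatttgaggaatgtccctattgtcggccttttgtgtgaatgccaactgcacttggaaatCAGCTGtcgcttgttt

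The strongest calls were for the large subunit. The signal is the peak caller's value as deposited, and was not rescaled between lists, so the level in a replicate is set by that list's own scale. At mRpL30, a protein of a bacterial family, the signal was 497 in the conservative list, 288 in replicate 1 and 198 in replicate 2. Its peak, chrX:4647752-4647963, has a summit 1 bp before the TSS. At mRpL4, whose bacterial relative reaches into the peptide exit tunnel, it was 489, with 282 in replicate 1 and 208 in replicate 2 (chr2L:16329056-16329273). Among all genes with a relaxed peak, 99.5% had a signal no higher than that of mRpL30. At mRpL3, which with mRpL4 belongs to the oldest core of the large subunit, the signal was 286, with 166 in replicate 1 and 122 in replicate 2 (chrX:15761241-15761341). These 3 summits lay within 20 bp of the member's own TSS.

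Among the other strong calls for the large subunit, several summits lay closer to a neighbouring gene. The mitochondria-specific mRpL42 had a signal of 332, with 213 and 131 in replicates 1 and 2, and a summit 18 bp after its TSS, in its 5′ UTR. mRpL20, of a bacterial family, had 289, with 148 and 114, and a summit 138 bp upstream. At mRpL17 the signal was 310, with 166 and 139, but the summit lay 331 bp upstream of the gene and only 68 bp from the TSS of Tudor-SN. mRpL17 also had a weaker conservative summit of 95.8, 131 bp upstream of its own TSS. The summits of mRpL39 and mRpL53 also lay in promoters shared with another gene. mRpL39 had 262, with 107 and 153, and its summit lay 47 bp from the TSS of the proteasome gene Prosbeta2. At mRpL53 the signal was 204, with 93.9 and 105, and the summit was 67 bp upstream, within an intron of AGO1. mRpL33 had 202, with 105 and 84.0, and its summit lay 64 bp from the TSS of norpA, a phospholipase C gene. mRpL48 had 160, with 105 and 50.2, and its summit lay 28 bp from the TSS of CG17660. Of these 7 genes, replicate 2 was the higher replicate at mRpL39 and mRpL53.

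Of the ribosomal stalk, the flexible arm that recruits translation factors, mRpL10 and mRpL12 were called. The signal at mRpL10 was 170, with 95.5 in replicate 1 and 74.2 in replicate 2, and the summit lay 8 bp after its TSS. mRpL12 had 83.8 and a summit 153 bp after its TSS, in the 5′ UTR, and in the replicates 49.8 and 42.9. Replicate 2 had no thresholded peak there. mRpL11, which sits at the base of the stalk, was in the second list alone, with a signal of 60.0. mRpL1, the protein of the other stalk of the subunit, had 66.1 and was in neither replicate's thresholded list.

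Of the 25 small-subunit members with a relaxed peak, 7 were called (28.0%, interval 14.3 to 47.6), beside 21 of 47 for the large subunit (44.7%, interval 31.4 to 58.8). These intervals overlap, and the interval of the small subunit holds the 22.9% of all genes. The strongest was mRpS17, of a bacterial family, with 216, and the ratio between its replicates was the largest among the 15 strongest members, 136 in replicate 1 and 51.4 in replicate 2. mRpS29, related to the mammalian GTP-binding protein DAP3, had 166, with 98.2 and 66.7. mRpS23 had 142, with 85.5 in replicate 1 and a relaxed signal of 57.7 in replicate 2. mRpS18C, 1 of the S18 paralogues, had 134, with 91.8 and 46.99. The remaining 3 were mRpS14 with 131, mRpS28 with 118 and mRpS11 with 81.0. Replicate 1 was the higher in all 7. Split by origin, 15 of 44 bacterial-family members (34.1%) and 13 of 28 mitochondria-specific members (46.4%) were called, beside the same 22.9%. The replicate 2 list alone held 14 of all 47 large-subunit and 3 of all 26 small-subunit members. By origin it held 11 of all 44 bacterial-family and 6 of all 29 mitochondria-specific members, so the bacterial-family share was the higher there. That list called 1900 of all 13968 protein-coding genes, which is 16.7% of the 11348 with a relaxed peak in replicate 2.

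The median conservative signal of the 28 members was 138, near the 148 of all called genes, and 10 members (35.7%) exceeded 200, as did 31.7% of all called genes. Over all 72 members the median relaxed signal was 56.0, and over all genes it was 45.4. The called members ranged from 497 at mRpL30 to 66.1 at mRpL1, with mRpL37 far below at 12.4. mRpL37 was called by a weak summit 303 bp after its TSS, in an intron. A stronger one of 105, 222 bp upstream, was in the second list and in replicate 2 only.

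**Figure D1:**
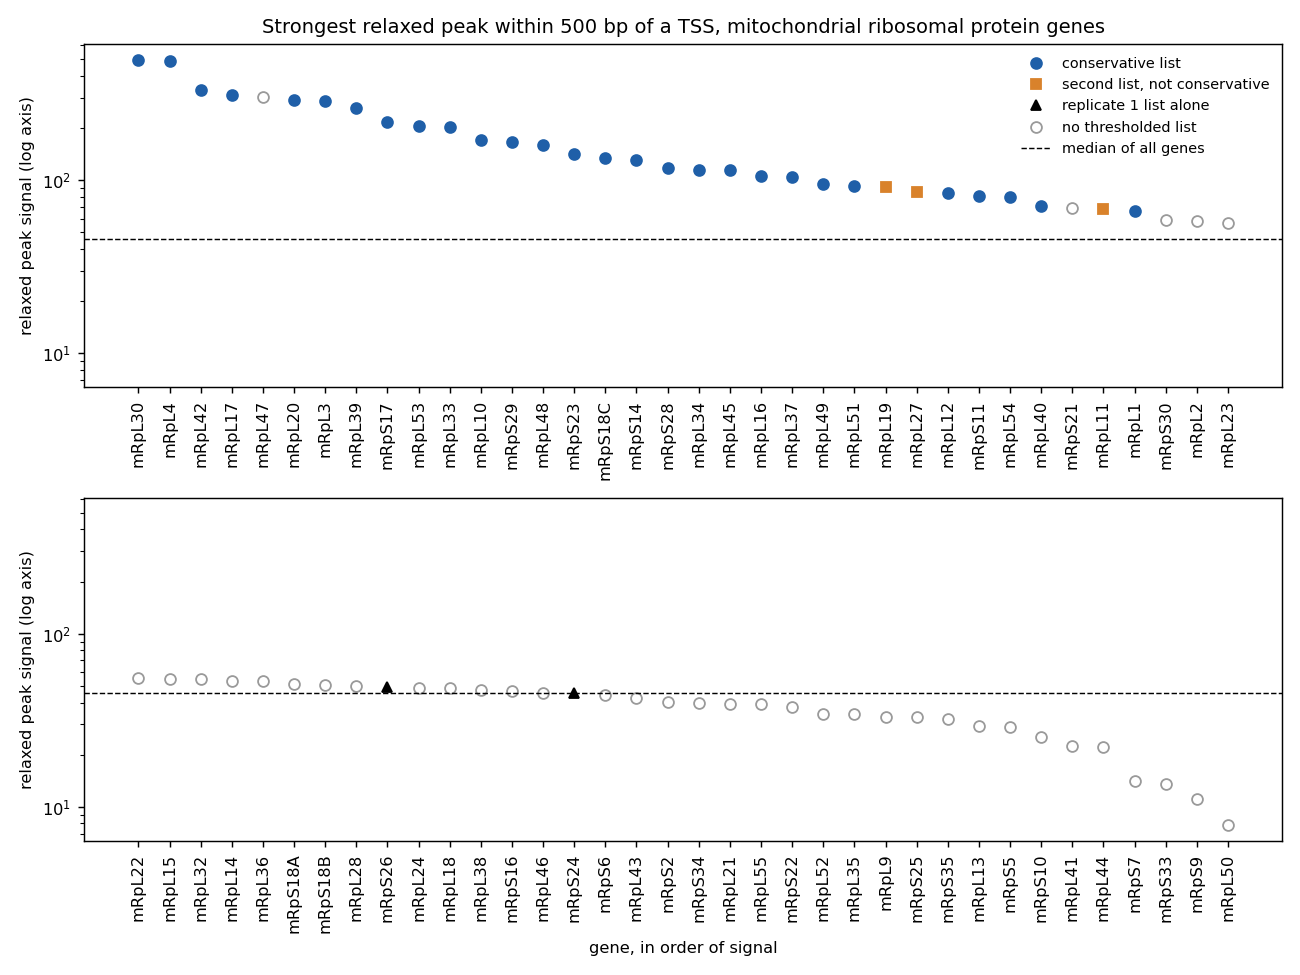
Signal of the strongest relaxed peak within 500 bp of a TSS (log axis) for each of the 72 members that had one, in order, with symbols for the thresholded lists that hold the gene; the dashed line is the median of all genes, 45.4. Filled circles end at 66.1, the open circles above that are mRpL47 at 302 and mRpS21 at 68.9, and mRpL37 is drawn at the signal of its stronger upstream peak.

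mRpL47, which corresponds to the bacterial tunnel-exit protein L29, was the exception at the top. Its relaxed peak, 58 bp upstream of the TSS, had a signal of 302, with 153 in replicate 1 and 134 in replicate 2. Its irreproducible discovery rate (IDR), which is low where a peak ranks alike in separate sets of calls, was 6.65e-05. It was in no thresholded list, for a reason not given in the sources used here. A high ranked score without a conservative call was not particular to mRpL47. Ranked peaks scoring at least the lowest conservative score called 2765 of all genes, beside 2709 in the conservative list. Next among uncalled members were mRpL19 at 91.6 and mRpL27 at 84.9, both in the second list. The median of the 44 uncalled members with a relaxed peak was 45.6, and that of all uncalled genes 37.4. The lowest was mRpL50 at 7.81, and mRpS31 had no relaxed peak in this list.

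The second list, also from both replicates, called 29 of 72 members (40.3%), with 24.8% of all genes. It shared 26 with the conservative list, lacked mRpL39 and mRpS11 and added mRpL11, mRpL19 and mRpL27. The same mRpL39 peak had an IDR of 0.00013 in the ranking behind the conservative list and of 0.62 in the other. Replicate 1 alone called 24 of 72 (33.3%, against 21.6% of all genes), and replicate 2 alone 17 of 66 (25.8%, against 16.7%). mRpS24, mRpS26 and mRpL19 were in the replicate 1 list without a conservative call. In all, 33 members were in at least 1 of the 4 thresholded lists and 40 in none. The same count over all genes was not made, so these counts do not set members apart from other genes.

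Each of the 28 called members had at least a relaxed peak in both replicates under its conservative peak. A thresholded peak overlapped in both replicates for 15 of them (53.6%), and for 62.6% of all called genes. For 7 it did so in 1 replicate: mRpS23, mRpS14, mRpS28, mRpL45, mRpL51 and mRpL12 in replicate 1, and mRpL16 in replicate 2. For 6 it did so in neither, namely mRpL49, mRpS11, mRpL54, mRpL40, mRpL1 and mRpL37, 6 of the 8 weakest calls. Signal was higher in replicate 1 at 23 of 28 members (82.1%) and at 78.5% of all called genes, with a median ratio of 1.36 for members and 1.26 for all. The order of the members was similar in the replicates (Spearman's rho 0.819 over 28 members and 0.816 over 2702 genes, as a description, since members are genes of the same libraries).

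**Figure D2:**
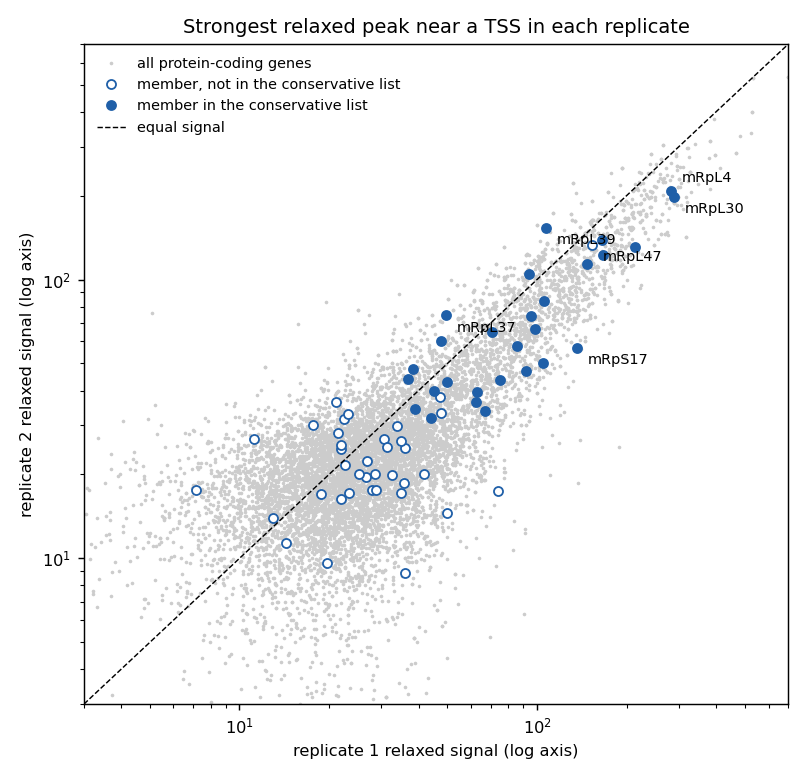
Signal of the strongest relaxed peak within 500 bp of a TSS in replicate 1 (x axis) and replicate 2 (y axis), both log, with all protein-coding genes in grey and members in blue, filled where called. Filled members lie along the diagonal with most below it, and mRpL47 lies among the strongest of them although it was not called.

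Member genes are short and closely packed. Their median length was 909 bp, compared with 2164.5 bp for all genes, and 67 of 73 have a single TSS. The TSS of an opposite-strand protein-coding gene lay within 500 bp for 53 of 73 (72.6%), and for 27.8% of all genes. For 18 members it lay within 100 bp. All 53 members were head to head with this neighbour, whereas the share of all genes includes overlapping arrangements. A summit in such a promoter counts for both genes, so the calls were split by it. With a divergent neighbour, 20 of 52 members were called (38.5%), and 41.4% of all such genes. Without one, 8 of 20 were called (40.0%, interval 21.9 to 61.3), and 14.9% of all such genes. In the replicate 2 list alone, without replicate 1, these shares were 22.2% for members and 10.1% for all genes. The 8 in the conservative list are mRpL4, mRpL3, mRpL10, mRpS29, mRpL45, mRpL49, mRpL12 and mRpL40. The promoter, 250 bp before to 50 bp after the first TSS, held a DRE in 7 of the 20 members without a divergent neighbour (35.0%). Of all such genes, 6.34% had it there. With it, 5 of 7 members (71.4%) and 65.4% of all such genes were called. Without it, 3 of 13 members were called (23.1%, interval 8.18 to 50.3), and 11.0% of all such genes. Where called members had a divergent neighbour, that neighbour was called too for 17 of the 20.

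The summit was closest to the member's own TSS for 18 of the 28, namely all 8 without a divergent neighbour and 10 of the 20 with one. In the other 10 it was closest to the neighbour: Tudor-SN, Prosbeta2, norpA, CG17660 and CG15535 among the strongest 15, and Naa15-16, Dg, trr, Uba4 and CG15653 among the rest. Counting only such own-TSS summits, 18 of 72 members (25%) and 16.6% of all genes were called. That share was 19.2% for members and 21.7% for all genes with a divergent neighbour, and 40.0% and 14.4% without one.

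**Figure D3:**
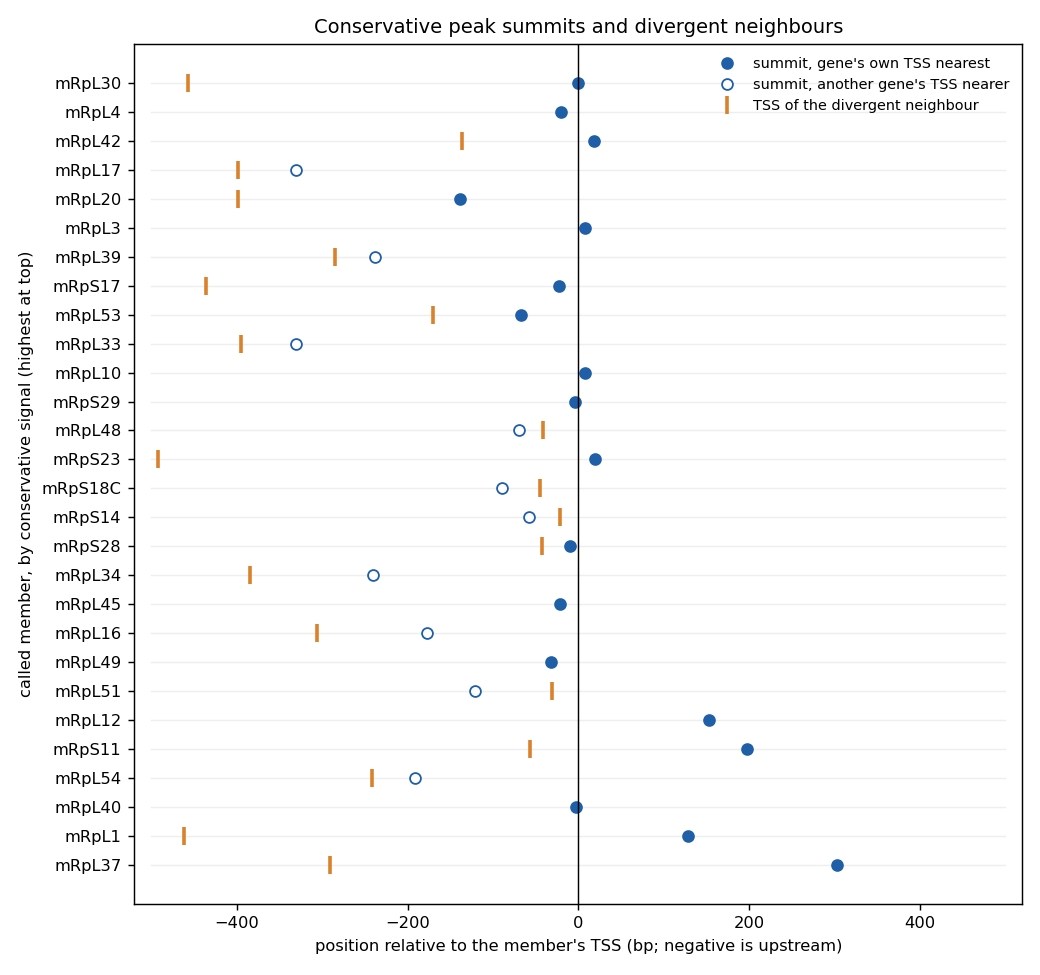
Position of the conservative summit (circles) relative to the TSS of each of the 28 called members, in bp, with negative values upstream, and the TSS of the divergent neighbour (orange bars). Filled circles, 18 of 28, are closest to the member's own TSS, and open circles sit near an orange bar.

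The median distance from summit to member TSS was 68 bp, the same as for all called genes. There were 11 summits within 25 bp, 16 within 100 bp and 23 within 200 bp, and 20 lay upstream and 8 downstream. By the annotation, 15 summits were outside protein-coding genes, 6 in the member's own 5′ UTR, 3 in the 5′ UTR of a neighbour, 2 in a coding exon of the member and 2 in introns.

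The DRE lay within 50 bp of 7 of the 28 summits (25%), those of mRpL4, mRpL3, mRpL39, mRpL10, mRpS29, mRpS23 and mRpS14. The share over the 1936 distinct summits of all called genes was 24.2%. Of 56 windows centred 500 bp to either side of the member summits 0 held it, and 0.517% of such windows for all genes. The core ATCGAT was in 14 of 28 (50%), and in 48.8% overall. Of the 15 strongest members, 6 had a DRE at the summit, and 1 of the other 13 had. Among the 1000 strongest conservative peaks, 38.5% of called members and 27.8% of all called genes had it. Counted by gene over the whole list, 24.4% of all called genes had it. The median signal of members was 170 with a DRE at the summit and 115 without, and over all called genes 163 and 143. At mRpL39 and mRpS14 the DRE was centred at −278.5 and −43.5 bp from the member's TSS, closer to the TSS of the neighbour.

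Whole promoters, from 250 bp before to 50 bp after the first TSS, held a DRE in 15 of 73 members (20.5%) and in 9.36% of all genes. With a divergent neighbour, the DRE was in 8 of 53 members (15.1%) and in 17.2% of all such genes. Members thus exceeded like genes only without such a neighbour, at 35.0% beside 6.34%. Of all promoters with a DRE, 10 of 15 of members (66.7%) and 68.6% of all genes were called. Without it, 18 of 57 members (31.6%) and 17.5% of all genes were called. These promoters without a DRE differ by neighbour. With a divergent neighbour, 15 of 44 members (34.1%) and 34.6% of all such genes were called. Without a divergent neighbour, the shares were 23.1% (3 of 13 members) and 11.0%. The 5 DRE promoters without a call were those of mRpL19, mRpL22, mRpL32, mRpS18B and mRpS25.

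The E-box was the commoner element of these promoters. It was in 40 of 73 (54.8%, interval 43.4 to 65.7) and in 17.7% of all protein-coding promoters. The reversed string GTCGAC, a control of like composition, was in 1 member promoter and in 4.18% of all. Large-subunit promoters held it in 27 of 47 (57.4%) and small-subunit promoters in 13 of 26 (50%). The share was alike with a divergent neighbour, 29 of 53 members (54.7%, against 25.04% of all such genes), and without, 11 of 20 (55.0%, against 14.8%). Member E-boxes clustered around the start: of 45 sites the median began 2 bp after the TSS, and 31 (68.9%) began between 60 bp before and 20 bp after it, as did 44.6% of those in all promoters. DREs in member promoters had a median start 9.5 bp before the TSS, and 13 of 16 (81.3%) began in that window, against 60.0% overall.

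**Figure D4:**
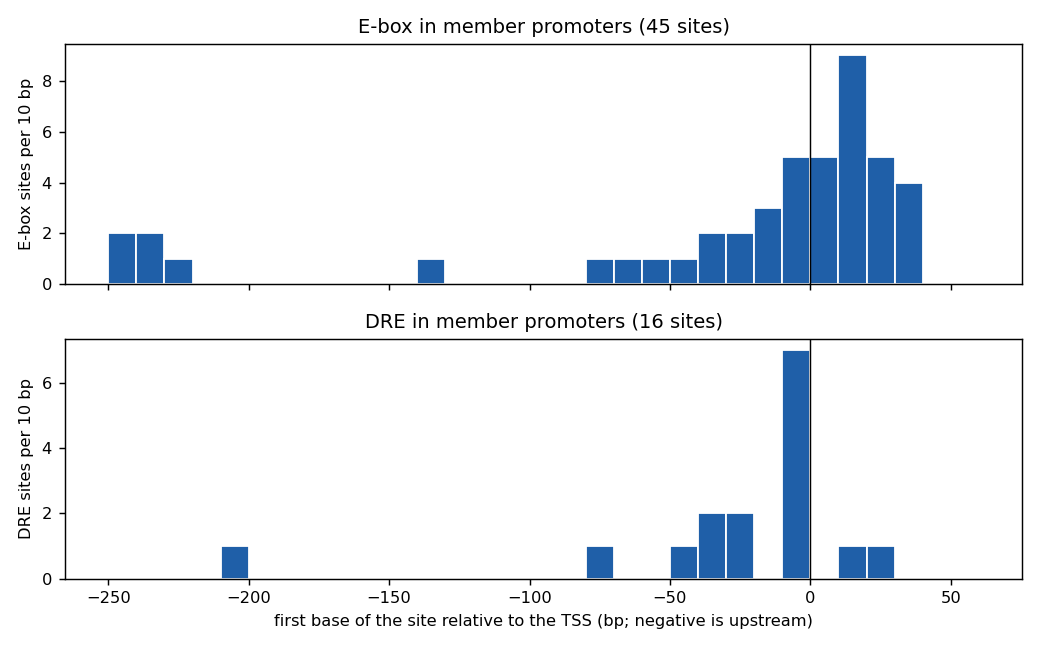
Number of E-box sites (top, 45 sites) and DRE sites (bottom, 16 sites) per 10 bp in the promoters of the 73 members, by distance of the first base from the TSS. Both gather around the TSS.

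Calls were not more frequent among members with the E-box. Of the 40 members with it in the promoter 12 were called (30%), and 16 of the 32 without it (50%), while the shares over all genes were 25.7% and 22.3%. The median relaxed signal was 51.9 with it and 73.5 without. Within 50 bp of the summit the E-box was in 7 of 28 (25%) and in 9.61% of all called summits. These were mRpS17, mRpS18C, mRpS14, mRpS28, mRpL45, mRpL54 and mRpL40. Taking both elements together, 10 of 12 members with the DRE core and no E-box were called (83.3%, interval 55.2 to 95.3), 7 of 15 with both (46.7%), 5 of 25 with the E-box alone (20%) and 6 of 20 with neither (30%). For all genes the 4 shares were 53.7%, 58.3%, 13.6% and 11.8%. The intervals of the members with the DRE core overlap whether or not they held the E-box.

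**Figure D5:**
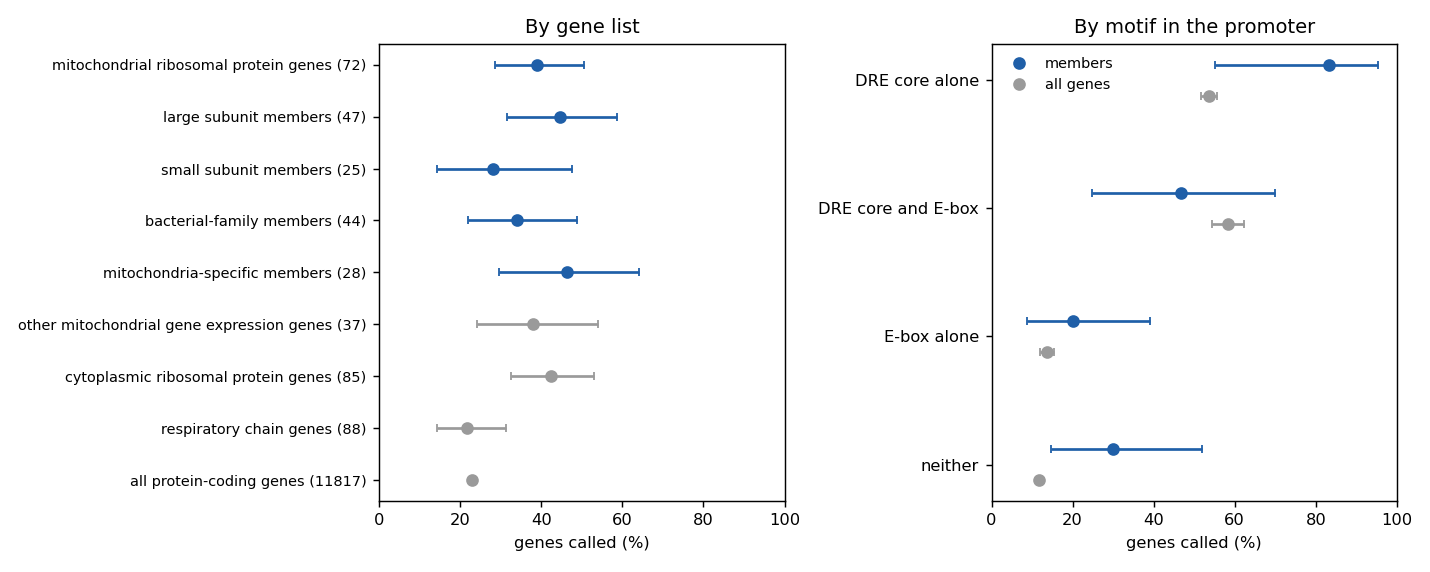
Percentage of genes called in the conservative list, with Wilson 95% intervals, by gene list (left, number of genes in brackets) and by motif in the promoter (right, members in blue and all genes in grey). Members with the DRE core alone reach 83.3% and those with the E-box alone 20%.

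Other motifs searched on both strands gave little. The M1BP core GGTCACACT, of a factor at many housekeeping promoters, was in 8 member promoters (11.0%, against 6.04% of all). Of those 8, only mRpL48 was called (12.5%, interval 2.24 to 47.1), against 28.6% of all genes with this core. It was at 0 of 28 summits, and at 3.20% of the summits of all called genes. The NRF-1 core CGCATGCG and the Ets core CCGGAAG, the motifs of factors that drive many such genes in mammals, were in 0 of 73 promoters and at 0 of 28 summits. Over all genes these 2 were rare too, in 0.623% and 1.10% of promoters and at 0.103% and 0.258% of summits. The letters CACGTG, the E-box that Myc binds, were in 5 promoters (6.85%, against 4.23% of all) and at 0 summits (1.45% of all). GGGGTA, part of the site of the related mammalian protein INSM1, was in 3 promoters (4.11%, against 4.26% of all) and at 0 summits (1.34% of all).

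Genes that work with the mitochondrial ribosome were set beside the members. Of 37 other genes of mitochondrial gene expression with a relaxed peak, 14 were called (37.8%, interval 24.1 to 53.9). They were led by the release factor gene mRF1 with a signal of 452, then tko with 254, GatC with 203, AspRS-m with 186, SLIRP2 with 181 and bsf with 168. tko encodes small-subunit protein S12 under another symbol, and bonsai, which encodes S15, was called too with 116. The summit was closest to the gene's own TSS for 9 of the 14 (64.3%), and for 72.5% of all called genes. Of the genes named here, another gene's TSS was closer for mRF1, GatC, SLIRP2 and bonsai. The E-box was in 21 of 39 promoters of this list (53.8%). Genes of the cytoplasmic ribosome were called in 36 of 85 cases (42.4%) and had the E-box in 9.78% of promoters. Genes of the respiratory chain were called in 19 of 88 (21.6%), with the E-box in 23.9%.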

How the data were processed

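The authors deposited peak lists on build dm6, per the labels. These were thresholded and ranked lists for each replicate and, from both replicates, a conservative and a second thresholded list with a ranked list behind each. The software for alignment and peak calling was not given in the sources used here. Signal values were used as deposited, on the peak caller's scale. The deposited score rises as the IDR falls, and the ranked lists hold a deposited −log10 (IDR). Left unused were 16 columns of the pooled ranked lists that hold values of single samples.

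Peaks on the main chromosome arms were joined to TSSs of the Ensembl 115 annotation. The conservative list held 2796 peaks, and the replicate lists 2555 and 1758. The number of conservative peaks past the end of an arm of the reference was 0. A member's strongest peak stood for it, and its replicate signals came from replicate peaks overlapping by at least 1 bp. Relaxed means the ranked list. Motifs were searched on both strands in 8 fixed spellings. The DRE core lies within the DRE. Sequences came from the Release 6 reference. Wilson intervals at 95% cover counting error over genes only, and genes that share a promoter are not independent. The replicates are the only samples, so no p-values were computed.

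Full values were given for the 15 called members of highest signal. All members in the second list alone, with fewer than 2 replicate peaks or with no relaxed peak were named. Members outside this rule, the neighbours, the promoters without a call and bonsai were named after their values were seen. Bacterial-family and mitochondria-specific members were told apart by their protein numbers. Of 44 symbols written for other mitochondrial gene expression genes, 39 were matched on the arms. The members and lists were chosen with earlier results of these data known. The scripts were checked on simulated peaks. Python 3.11.15, numpy 2.4.6, scipy 1.17.1, statsmodels 0.14.6 and matplotlib 3.10.9 were used.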

Additional observations from a re-analysis of the deposited data

How the results depend on the processing

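The 42 alternatives over 9 results left 34 values alike and moved 8. A count was alike within a fixed fold of the main value, and a share inside the main value's own Wilson interval. A median was alike if it moved by less than the standard deviation of its values without each replicate. With few members the limit for shares is wide. The called share of members without a divergent neighbour, 40.0%, counted as alike at 22.2% without replicate 1. So the 34 are not a measure of stability. Leaving out a replicate gave 17 to 24 called members, 17 when replicate 1 was left out, a median signal of 84.0 to 94.7 for members and of 84.0 to 87.9 for all genes, and a median distance of 57 to 71 bp. The signals of a replicate list have a scale of their own. Taking the 1000 strongest conservative peaks gave 13 called members and 1280 of all genes. The median signals there, 262 for members and 230 for all genes, are high by construction. The second list gave a median of 131 for members and 137 for all genes. Counting a summit for the gene of its nearest TSS alone gave 21 called members with a median of 118. For all genes it gave 2029 with a median of 143. The 21 members exceed 18 because 3 members, mRpL17, mRpL16 and mRpL54, have a second summit nearest to their own TSS. Windows of 250 and 1000 bp gave 26 and 30 members, and 2354 and 3048 of all genes. The following alternatives were chosen after seeing the data. A score at least as high as the lowest conservative score gave 29 members by adding mRpL47, and 2765 of all genes. A signal of at least 30 gave 27 members by dropping mRpL37, and 2697 of all genes. Other promoter windows held the E-box in 52.1% to 56.2% of members and in 12.1% to 22.3% of all genes. No paired analysis was possible because there is 1 group. Depth is unknown from the lists, so an uncalled member is not shown to lack a peak.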

Other observations

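By chromosome arm, 7 of 12 members on 2R, 6 of 11 on X and 5 of 12 on 2L were called, and 4 of 16 on 3L and 6 of 21 on 3R. The shares of all genes on these arms ran from 20.3% to 27.7%. A second conservative summit within 500 bp was listed for 6 called members. It had a signal of 97.4 at mRpL20, 95.8 at mRpL17 and 33.1 at mRpL54, and of 2.88 at mRpL4, 3.39 at mRpL12 and 4.13 at mRpL16.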
